A study of Mus musculus with 18 samples.

Results

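The genes described here are the neighbours of Trem2 on mouse chromosome 17: protein-coding genes whose start lies between positions 38000000 and 56000000 (GRCm38) and that held at least 100 counts over all 18 libraries of a microglia RNA sequencing study. The window holds 175 protein-coding genes. Of these, 16 were left out by name, 82 were below the count minimum, and 77 were kept, out of 54532 genes in the deposited table. The members were therefore chosen by position and by total count, and the genotype differences below were not part of that choice, although they were known in part from an earlier account of the same data. Just outside the count minimum lay Lrrc73 and Gm20517 with 88 counts each and Ptk7 with 94 counts, and just inside it lay Sgo1 with 101, 9130008F23Rik with 114 and Guca1b with 133 counts. All members except 9130008F23Rik passed the filter on low counts of the test, so 76 were tested.

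The cells were primary microglia from mouse pups of postnatal day 0 to 3, isolated after 10 days in mixed culture. The 6 groups had 3 libraries each. R47H/+ cells carry an allele labelled hTrem2 R47H beside a mouse Trem2 allele, and Trem2+/+ cells carry mouse Trem2 on both. R47H/+ cells were studied with 1 uM of the Akt kinase inhibitor MK-2206 and without it, and Trem2+/+ cells without it only. Each of these conditions was run with and without 1 ug per ml 0N4R tau fibrils, made of a form of tau with no N-terminal inserts and with all its repeats. The pre-treatment lasted 6 h in every group, with 0.01% DMSO as vehicle where MK-2206 was absent, and no DMSO share is given for the wells with MK-2206. How the edited line was made, and which mice or cultures gave the replicates, are not given in the sources used here, and the p-values therefore cover the spread between the libraries at hand, part or all of which may be technical.

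An edited allele brings with it the stretch of chromosome on which it was made, and genes close to it are inherited with it for many generations of breeding. Neighbours of an edited locus are therefore commonly examined beside it. Trem2 lies in a cluster of genes for immunoglobulin-like receptors of myeloid cells, and its protein is a lipid-sensing receptor of microglia that signals through the adaptor DAP12.

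Library totals lay between 16288531 and 20686299 counts, and the members took 0.238% to 0.354% of them. In 2 libraries, Trem2+/+ replicate 3 and R47H/+ with tau replicate 2, transcripts of long genes were under-represented and those of short genes over-represented relative to their own replicates. The change in log2 CPM (counts scaled to library size) for a 10-fold step in gene length was -1.39 and -0.73 over all genes tested, while 16 libraries lay between -0.17 and 0.14, and over the members it was -2.29 and -1.16. Microglial markers (9 of 9 measured) summed to between 3801 and 3888 CPM in R47H/+ and between 2715 and 3280 CPM in Trem2+/+ libraries without tau, and with tau to between 3405 and 3530 CPM in R47H/+ and between 3556 and 3639 CPM in Trem2+/+ libraries, but Tmem119 was below 1 CPM in the mean of each group without tau. Oligodendrocyte-lineage markers summed to 136 to 148 CPM in R47H/+ and 153 to 194 CPM in Trem2+/+ without tau, and with tau to 85.7 to 104 CPM in R47H/+ and 125 to 129.5 CPM in Trem2+/+. Fibroblast and vessel markers summed to 25.5 to 33.4 CPM in R47H/+ and 5.33 to 13.0 CPM in Trem2+/+ without tau, and with tau to 56.3 to 93.6 CPM in R47H/+ and 40.3 to 45.2 CPM in Trem2+/+. In every group 8 of these 9 were below 1 CPM, the exception being Kdr. Astrocyte markers (9 of 9) summed to 66.8 to 70.0 CPM in R47H/+ and 61.8 to 107 CPM in Trem2+/+ without tau, and with tau to 79.6 to 104 CPM in R47H/+ and 92.5 to 102 CPM in Trem2+/+, and Aqp4 and Gja1 were below 1 CPM in each group. Border macrophage, monocyte and granulocyte markers (9 of 9) summed to 473 to 523 CPM in R47H/+ and 396 to 561 CPM in Trem2+/+ without tau, and with tau to 394 to 402 CPM in R47H/+ and 487 to 561 CPM in Trem2+/+, with Lyve1, Cd163, Plac8, S100a9 and Cd209f below 1 CPM in each group. Neuron markers (8 of 8) summed to 1.14 to 3.81 CPM over all libraries. The part of these markers in the differences below was not tested. In bulk RNA, fewer cells of a type and less RNA per cell cannot be told apart.

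Trem2 itself (48346401 to 48354147) was measured at 451, 454 and 489 CPM in R47H/+ libraries without tau, against 945, 935 and 1894 CPM in Trem2+/+ libraries. With tau it was measured at 128, 243 and 155 CPM in R47H/+ libraries, against 469, 481 and 375 CPM in Trem2+/+ libraries. The groups did not overlap in either condition, and each length-shifted library was the highest of its group. Trem2 fell by 1.44 on the log2 scale without tau (SE 0.251, adjusted p = 0.000821) and by 1.33 with tau (SE 0.251, adjusted p = 0.00285; edgeR quasi-likelihood test, Benjamini-Hochberg adjustment over 13267 genes). Whether reads of the hTrem2 allele count towards the mouse gene was not tested.

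Most neighbours of Trem2 were not called for genotype, and the 6 called in both tau conditions, A530064D06Rik, B430306N03Rik, Capn11, Plcl2, Gtpbp2 and Ebi3, were all higher in R47H/+ cells. A gene is called where its adjusted p in the edgeR quasi-likelihood test is under 0.05. Without tau 12 of 76 members were called, 8 higher and 4 lower in R47H/+, which is 15.8% of members beside 15.1% of all genes tested (8.22% higher and 6.83% lower). With tau 13 were called, 8 higher and 5 lower, which is 17.1% of members beside 9.5% of all genes tested (5.25% higher and 4.24% lower). The 6 called in both with the same sign are 7.89% of members, beside 4.09% of all genes tested, where 2.66% of all genes were called higher in both and 1.42% lower in both. By the same edgeR test 0 members were called with opposite signs, beside 0.317% of all genes tested, with 0 also at an unadjusted p under 0.05 and 0 by DESeq2. The 2 genotype comparisons share no library. When the groups compared were fitted alone, 2 members were called without tau, Capn11 and Enpp4 (2.74%, beside 3.81% of all genes tested), and 12 with tau (16.7%, beside 9.56%), so that Capn11 was the 1 member called in both. The other 10 members called without tau had adjusted p-values of 0.0736 to 0.29 in that smaller fit. With a lowess offset per library for gene length, 15 members were higher and 4 lower without tau (25%, beside 19.3% of all genes tested).

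**Figure D1:**
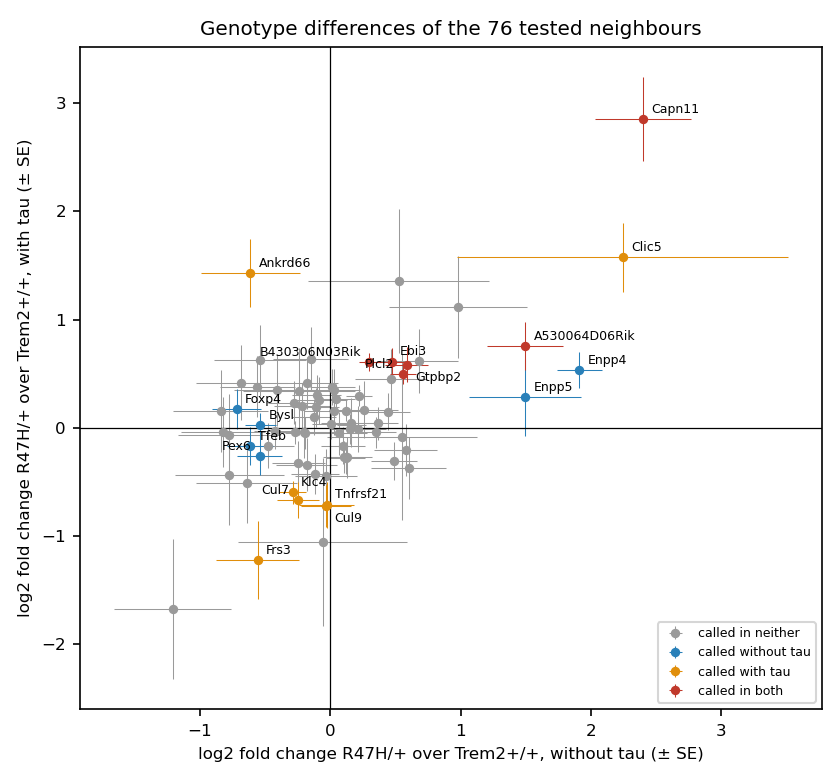
Each point is 1 of the 76 tested neighbours, with its log2 fold change of R47H/+ over Trem2+/+ without tau on the x axis and with tau on the y axis, and bars of 1 SE. The 6 genes called in both conditions lie in the upper right quadrant, with Capn11 farthest out at 2.40 and 2.85, and Ankrd66 lies at -0.61 and 1.43.

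The median log2 fold change of the members was -0.03 without tau and 0.04 with tau, against -0.02 and -0.00 over all genes tested. The sign was the same in both conditions for 47 of 76 members. The 57 members called in neither comparison had log2 fold changes of -1.21 to 0.98 without tau and -1.67 to 1.36 with tau, and the median SE over all members was 0.207 and 0.206. Group ranges did not overlap for 26 members without tau (34.2%, beside 31.4% of all genes tested) and for 35 with tau (46.1%, beside 33.7%). In both conditions and in the same direction they did not overlap for 10 members (13.2%, beside 8.78%). These were the 6 called in both, with Enpp4 and Med20 also higher in R47H/+ and Klc4 and Frs3 lower. For Ubr2, Tbc1d5 and Foxp4 the ranges did not overlap in either condition, but in opposite directions. R47H/+ was higher without tau and lower with tau for Ubr2 and Tbc1d5, and the reverse for Foxp4. The share of all genes with opposite directions is not given here.

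Of the 19 members called for genotype in either tau condition, 17 lie at lower coordinates than Trem2, up to 5.33 Mb away, among 57 tested there, and 2 lie at higher coordinates, Plcl2 and Ebi3, among 19 tested. Members starting below the lowest called one, Tnfrsf21, numbered 2. Of 37 tested members within 2 Mb of the Trem2 start, 6 were called without tau (2 higher, 4 lower), 6 with tau (2 higher, 4 lower) and 2 in both. At 2 to 5 Mb, 5 of 25 were called without tau and 5 with tau, all higher, and 3 in both. Beyond 5 Mb, 1 of 14 was called higher in each comparison, the same gene in both, and 1 more was lower with tau. On the rest of chromosome 17, 17.6% of 522 protein-coding genes tested were called without tau, 10.9% with tau and 4.6% in both with the same sign. Members at lower coordinates than Trem2 (57) had a median log2 fold change of -0.12 without tau and 0.02 with tau, and those at higher coordinates (19) of 0.25 and 0.15. No test was made of these counts, since neighbouring genes are not replicates.

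**Figure D2:**
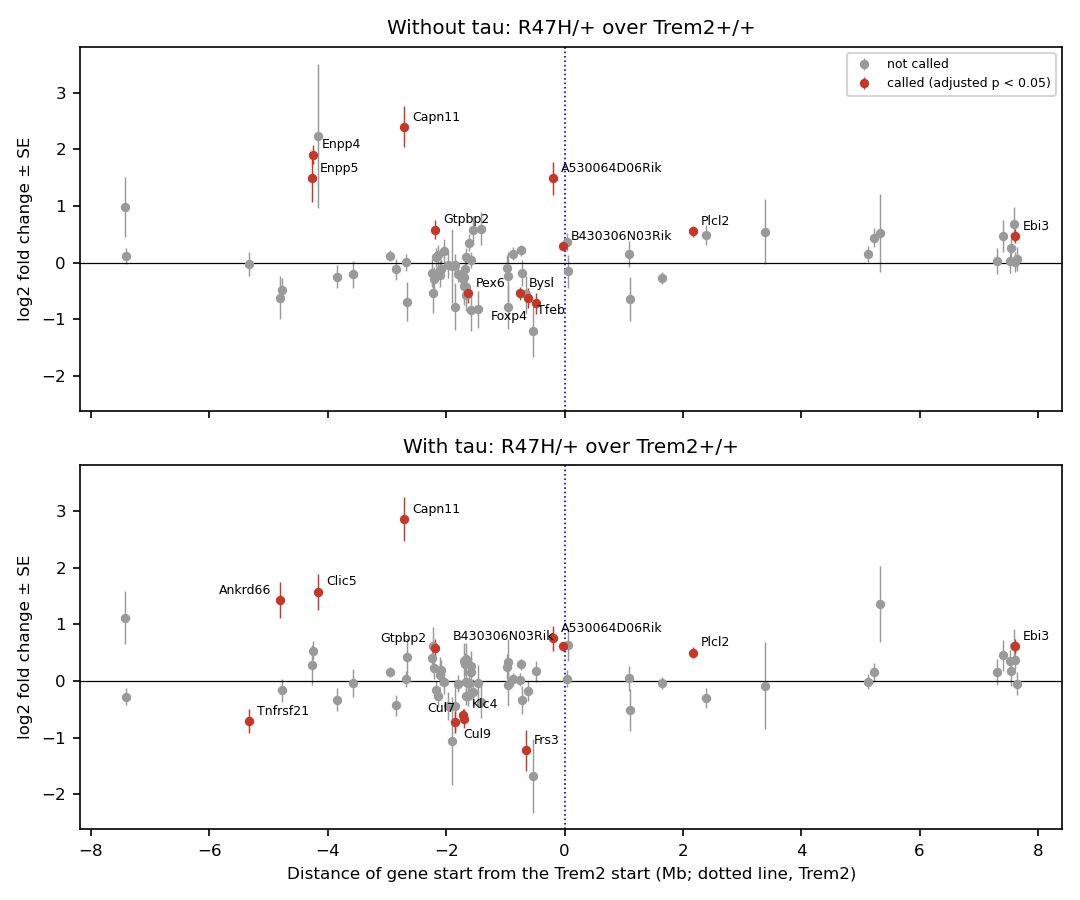
Log2 fold change of R47H/+ over Trem2+/+ (y axis, bars of 1 SE) against the distance of each gene's start from the Trem2 start in Mb (x axis), without tau above and with tau below, for 76 members. Called members, in red, lie from close beside Trem2 (B430306N03Rik, 0.0303 Mb) to 7.61 Mb away (Ebi3), with uncalled genes, in grey, between them.

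The 2 members nearest to Trem2 at lower coordinates carry clone names, and both were higher in R47H/+ cells in both tau conditions. RefSeq lists pdctrem and Trem4 as synonyms of A530064D06Rik and Treml6 as a synonym of B430306N03Rik, so both belong by synonym to the receptor cluster around Trem2, although their symbols do not begin with Trem. Their RefSeq promoters (GRCm38.p6, 250 bases before to 50 after the start) are shown because both genes were higher in R47H/+ and rose with tau, and their promoters are near copies: of 298 aligned columns 292 are identical (98.0%), with 5 mismatches and 1 gap. The A530064D06Rik promoter is chr17:48167208-48167507 on the minus strand and the B430306N03Rik promoter is chr17:48315912-48316211 on the plus strand. Capitals mark the letters that differ between them.
A530064D06Rik: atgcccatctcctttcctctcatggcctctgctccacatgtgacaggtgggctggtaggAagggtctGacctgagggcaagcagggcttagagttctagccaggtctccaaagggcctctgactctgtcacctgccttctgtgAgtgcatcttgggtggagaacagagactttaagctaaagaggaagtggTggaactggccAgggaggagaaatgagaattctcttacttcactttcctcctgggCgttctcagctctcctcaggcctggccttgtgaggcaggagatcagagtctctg
B430306N03Rik: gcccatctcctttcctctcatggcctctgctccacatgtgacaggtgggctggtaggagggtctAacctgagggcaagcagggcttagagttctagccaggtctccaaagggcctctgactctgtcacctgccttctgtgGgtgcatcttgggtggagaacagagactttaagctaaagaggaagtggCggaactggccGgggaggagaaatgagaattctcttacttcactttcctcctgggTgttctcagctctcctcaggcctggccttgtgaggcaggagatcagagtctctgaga
Both sequences hold the letters GAGGAAGT, a core of the sites of the myeloid factor PU.1, starting 69 bases before the start in A530064D06Rik and 72 bases before it in B430306N03Rik. These letters, searched on both strands, lie in 8 of the 71 member promoters in the table (11.3%) and in 3.28% of all 27025 promoters, and they were searched only after the sequences had been read. The 8 include both promoters shown, and the 27025 were not limited to genes counted in these cells. The motif is a letter match and no binding was measured.

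Counts could in principle be split between such copies, so their transcripts were compared. The longest coding transcripts have 1859 bases (A530064D06Rik) and 3996 bases (B430306N03Rik), and their best local alignment covers 603 columns at 95.7% identity. No stretch of 150 bases of one occurs letter for letter in the other (0 of 1710 and 0 of 3847 windows). At that identity an exact match of such length is unlikely, and read alignment can allow mismatches. This count therefore cannot decide whether reads were shared between the copies. How the authors' counting treated reads that match both is not given in the sources used here.

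A530064D06Rik (ENSMUSG00000043939, 48149126 to 48167275, minus strand, 0.197 Mb from Trem2) was measured at 3.34, 3.27 and 2.01 CPM in R47H/+ libraries, against 0.728, 1.24 and 1.08 CPM in Trem2+/+ libraries. With tau it was measured at 25.6, 29.3 and 26.0 CPM in R47H/+ libraries, against 14.8, 15.8 and 17.4 CPM in Trem2+/+ libraries. Every R47H/+ library without MK-2206 was above every Trem2+/+ library of the same tau condition. With the MK-2206 libraries included, R47H/+ without tau ran from 0.54 to 3.34 CPM and overlapped Trem2+/+ (0.728 to 1.24 CPM). The gene rose by 1.49 on the log2 scale in R47H/+ without tau (SE 0.291, adjusted p = 0.00206) and by 0.76 with tau (SE 0.22, adjusted p = 0.0407; edgeR quasi-likelihood test, Benjamini-Hochberg adjustment). The call with tau was lost in each fit that left out 1 of the 6 libraries compared (adjusted p = 0.0734 to 0.164) and with the replicate number as a block (adjusted p = 0.07).

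B430306N03Rik (ENSMUSG00000043740, 48316141 to 48327024, plus strand, 0.0303 Mb) was measured at 73.7, 71.4 and 65.8 CPM in R47H/+ libraries, against 57.7, 58.4 and 55.5 CPM in Trem2+/+ libraries. The values with tau were 212, 213 and 203.9 CPM in R47H/+ libraries, against 140.2, 135 and 138 CPM in Trem2+/+ libraries. No library of one genotype, those with MK-2206 included, entered the range of the other in the same tau condition. The log2 fold change was 0.30 without tau (SE 0.0818, adjusted p = 0.0207) and 0.61 with tau (SE 0.0814, adjusted p = 0.000197; edgeR quasi-likelihood test, Benjamini-Hochberg adjustment). The difference without tau lost its call without R47H/+ replicate 1 (adjusted p = 0.101) or replicate 2 (adjusted p = 0.083), and with no filter on low counts (adjusted p = 0.214). The difference between the tau conditions was 0.31 and was not called (adjusted p = 0.139, same edgeR test). It was called without both length-shifted libraries (0.32, adjusted p = 0.0322), with the lowess offset for gene length (0.44, adjusted p = 0.0223) and by DESeq2.

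Capn11, which encodes a calpain, a calcium-dependent cysteine protease, showed the largest genotype difference among the members in both conditions (ENSMUSG00000058626, 45630204 to 45659325, minus strand, 2.72 Mb). R47H/+ libraries held 1.59, 1.58 and 1.73 CPM, against 0.26, 0.321 and 0.337 CPM in Trem2+/+ libraries. With tau they held 1.83, 1.15 and 1.66 CPM, against 0.143, 0.153 and 0.341 CPM in Trem2+/+ libraries. All 12 libraries with the R47H allele, those with MK-2206 included, lay between 1.15 and 2.68 CPM, and all 6 Trem2+/+ libraries lay between 0.143 and 0.341 CPM. The log2 fold change was 2.40 without tau (SE 0.365, adjusted p = 0.000233) and 2.85 with tau (SE 0.388, adjusted p = 0.000209; edgeR quasi-likelihood test, Benjamini-Hochberg adjustment). These values rest on few reads: 89 counts in R47H/+ against 17 in Trem2+/+ without tau, a depth-scaled ratio of 5.37 (95% interval 3.17 to 9.63), and 79 against 12 with tau, a ratio of 7.46 (4.04 to 15.0). The intervals cover counting error only. Capn11 was called in both conditions in each alternative fit and each leave-one-out fit that was run, and it was not called for tau (log2 fold change -0.54 in Trem2+/+, adjusted p = 0.454, and -0.08 in R47H/+, adjusted p = 0.872).

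Plcl2, which encodes a phospholipase C-like signalling protein without lipase activity, lies 2.16 Mb from Trem2 at higher coordinates (ENSMUSG00000038910, 50509403 to 50688484, plus strand). It was measured at 73.3, 84.0 and 75.1 CPM in R47H/+ libraries, against 45.9, 55.9 and 56.0 CPM in Trem2+/+ libraries. The values with tau were 130.3, 127 and 122 CPM in R47H/+ libraries, against 88.2, 91.1 and 89.0 CPM in Trem2+/+ libraries. The 6 R47H/+ libraries of each tau condition, with and without MK-2206, all lay above the 3 Trem2+/+ libraries. Plcl2 rose by 0.56 on the log2 scale in R47H/+ without tau (SE 0.0969, adjusted p = 0.000781) and by 0.50 with tau (SE 0.0963, adjusted p = 0.00341; edgeR quasi-likelihood test, Benjamini-Hochberg adjustment). It kept both calls in each leave-one-out fit.

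Gtpbp2, which encodes a GTP-binding protein that acts in the rescue of stalled ribosomes, was also higher in R47H/+ cells (ENSMUSG00000023952, 46161032 to 46169370, plus strand, 2.19 Mb). R47H/+ libraries held 125, 106 and 108 CPM, against 81.7, 90.7 and 53.2 CPM in Trem2+/+ libraries. With tau they held 264, 248 and 309 CPM, against 187, 202 and 159 CPM in Trem2+/+ libraries. The ranges did not overlap, and the lowest Trem2+/+ value without tau came from the length-shifted library. With the MK-2206 libraries included, the lowest R47H/+ value without tau was 86.1 CPM, below the highest Trem2+/+ value of 90.7 CPM. The log2 fold change was 0.59 without tau (SE 0.164, adjusted p = 0.0237) and 0.58 with tau (SE 0.164, adjusted p = 0.0335; edgeR quasi-likelihood test, Benjamini-Hochberg adjustment). Without both length-shifted libraries it was 0.39 and 0.65. The call was lost with tau without any 1 of 5 libraries, all but R47H/+ with tau replicate 2, at adjusted p-values of 0.0543 to 0.132, and without tau without R47H/+ replicate 1 (adjusted p = 0.105).

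Ebi3, the subunit shared by the cytokines interleukin-27 and interleukin-35, was the farthest of these members from Trem2 (ENSMUSG00000003206, 55952640 to 55957022, plus strand, 7.61 Mb). It was measured at 38.0, 37.2 and 33.7 CPM in R47H/+ libraries, against 21.4, 28.3 and 28.8 CPM in Trem2+/+ libraries. The values with tau were 84.2, 94.1 and 76.7 CPM in R47H/+ libraries, against 57.6, 55.7 and 53.7 CPM in Trem2+/+ libraries. The groups did not overlap in either condition. With the MK-2206 libraries included, the lowest R47H/+ value without tau was 27.6 CPM, below the highest Trem2+/+ value of 28.8 CPM. Ebi3 rose by 0.47 on the log2 scale in R47H/+ without tau (SE 0.127, adjusted p = 0.0186) and by 0.61 with tau (SE 0.125, adjusted p = 0.00512; edgeR quasi-likelihood test, Benjamini-Hochberg adjustment). Without tau the call was lost without R47H/+ replicate 1, R47H/+ replicate 2 or Trem2+/+ replicate 1 (adjusted p = 0.0601 to 0.0743) or with no filter on low counts (adjusted p = 0.0504). With tau it was lost with the lowess offset for gene length (log2 fold change 0.44, adjusted p = 0.0984). Ebi3 overlaps the antisense gene Gm16712 (341 counts in all), and whether counting used strand is not given in the sources used here. Its promoter holds the letters CCGGAAG, the core of an ETS factor site, 21 bases before the start. These letters lie anywhere in 22.5% of the member promoters and in 9.12% of all promoters, which were not limited to genes counted in these cells.

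**Figure D3:**
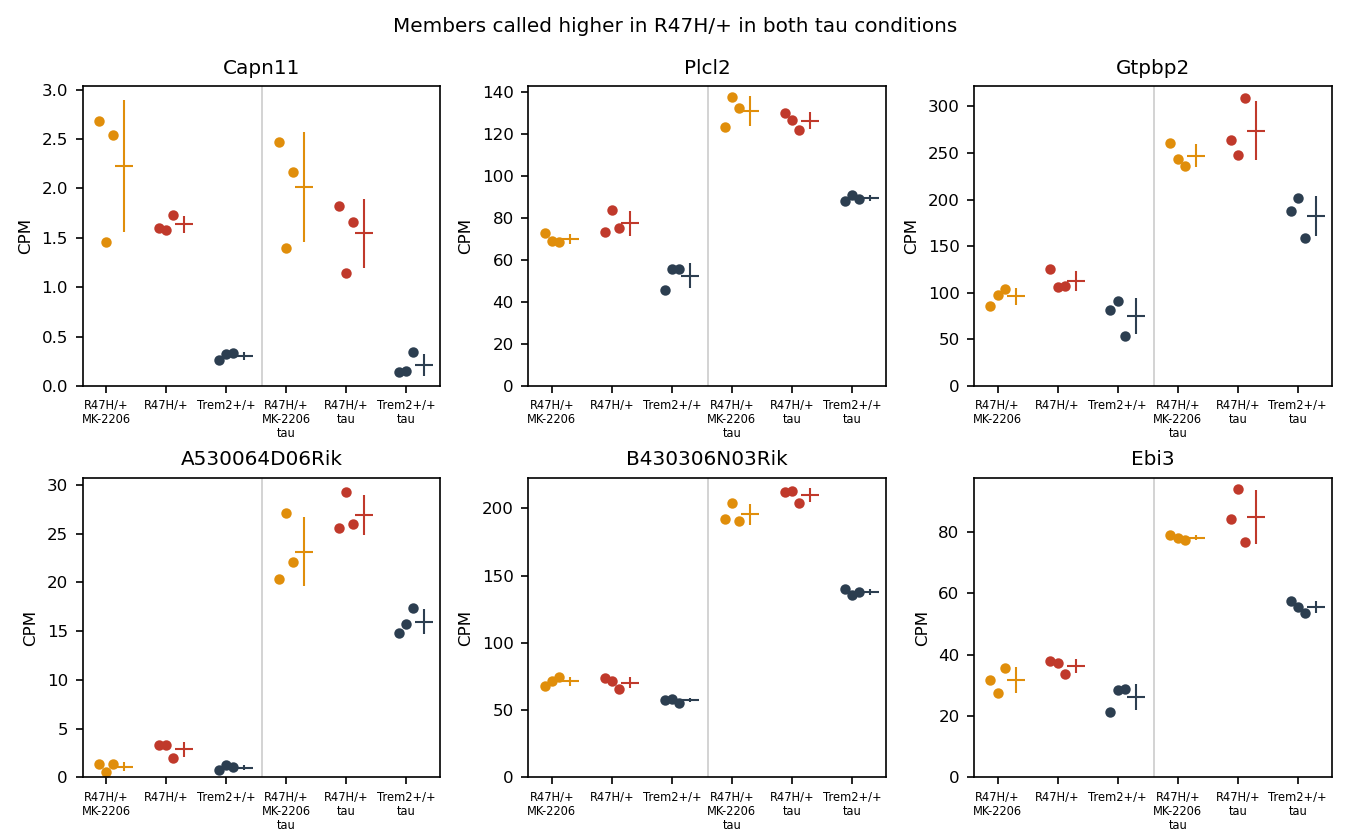
CPM of the 6 members called higher in R47H/+ in both tau conditions, with 1 point per library, and the mean with its SD (n = 3) beside them. Groups are R47H/+ with MK-2206, R47H/+ and Trem2+/+, without tau on the left and with tau on the right, and each y axis starts at 0. R47H/+ lies above Trem2+/+ in every panel and tau condition, and the widest gap relative to the level is that of Capn11.

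Per kb of gene length, the mean levels of these 6 in R47H/+ cells without tau were highest for Ebi3 (31.4 CPM per kb), followed by Gtpbp2 (21.3), B430306N03Rik (13.4), Plcl2 (11.7), Capn11 (0.604) and A530064D06Rik (0.489). Of all members, 14 exceeded 100 CPM in the mean of a group and 4 were at or below 1 CPM in every group mean.

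In the main edgeR fit of all 18 libraries, 2 members (2.63%) were called for a genotype difference that itself differed with tau, beside 5.37% of all genes tested. Enpp4, an ectoenzyme that hydrolyses nucleotide polyphosphates (ENSMUSG00000023961, 44096308 to 44105809, minus strand, 4.25 Mb), was measured at 64.3, 62.2 and 51.6 CPM in R47H/+ libraries, against 13.9, 19.9 and 13.5 CPM in Trem2+/+ libraries. With tau it was measured at 175, 124 and 148 CPM in R47H/+ libraries, against 96.5, 97.8 and 115 CPM in Trem2+/+ libraries. The groups stayed apart in both conditions, more widely without tau. Enpp4 rose by 1.91 on the log2 scale in R47H/+ without tau (SE 0.171, adjusted p = 8.19e-07), the smallest p among the members in that comparison, and its difference with tau was 0.53 (SE 0.163, adjusted p = 0.0507). The difference of differences was -1.37 (SE 0.234, adjusted p = 0.0018; edgeR quasi-likelihood test, Benjamini-Hochberg adjustment). Without both length-shifted libraries Enpp4 was also called with tau, at 0.65 (adjusted p = 0.000399).

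Ankrd66, which encodes a protein with ankyrin repeats (ENSMUSG00000096140, 43534188 to 43543639, minus strand, 4.81 Mb), was measured at 1.65, 0.643 and 0.949 CPM in R47H/+ libraries, against 0.935, 1.56 and 2.63 CPM in Trem2+/+ libraries. The values with tau were 6.63, 11.1 and 7.09 CPM in R47H/+ libraries, against 2.82, 3.92 and 2.44 CPM in Trem2+/+ libraries. The genotypes overlapped without tau and stood apart with it. Its log2 fold change was -0.61 without tau (SE 0.38, adjusted p = 0.288) and 1.43 with tau (SE 0.314, adjusted p = 0.00815), with a difference of differences of 2.04 (SE 0.492, adjusted p = 0.0219; edgeR quasi-likelihood test, Benjamini-Hochberg adjustment). That interaction lost its call at adjusted p-values of 0.0563 to 0.0652 in 5 of 12 leave-one-out fits, those without R47H/+ replicate 2 or 3, R47H/+ with tau replicate 2, or Trem2+/+ with tau replicate 1 or 3, and it was 1.36 without both length-shifted libraries (adjusted p = 0.0334), where its difference with tau was 1.16. The call with tau was lost without Trem2+/+ with tau replicate 1 (adjusted p = 0.0501).

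Among 18 transcription regulators tested, Tfeb and Foxp4 fell in R47H/+ without tau, and with tau 0 were called by edgeR, 2 had an unadjusted p under 0.05 (Mdfi and Med20) and 1 was called by DESeq2 (Med20). The list also holds genes of other roles, such as the tubulin cofactor Tbcc. Tfeb, a master regulator of lysosomal genes, was measured at 57.7, 52.4 and 57.3 CPM in R47H/+ libraries, against 73.85, 69.5 and 114 CPM in Trem2+/+ libraries. These ranges did not overlap, and the highest value came from the length-shifted Trem2+/+ library. Its log2 fold change was -0.62 (SE 0.175, adjusted p = 0.0249), and without both length-shifted libraries it was -0.36 (adjusted p = 0.00846) without tau and -0.33 (adjusted p = 0.0259) with tau (edgeR quasi-likelihood test, Benjamini-Hochberg adjustment). Foxp4, a forkhead repressor, was measured at 17.4, 13.7 and 14.8 CPM in R47H/+ libraries, against 23.7, 33.3 and 18.5 CPM in Trem2+/+ libraries. It was lower in each R47H/+ library than in any Trem2+/+ library, by a log2 fold change of -0.72 (SE 0.19, adjusted p = 0.0173), and with tau it was 0.17 (SE 0.187, adjusted p = 0.616; edgeR quasi-likelihood test, Benjamini-Hochberg adjustment). The Tfeb call was lost without any 1 R47H/+ library or Trem2+/+ replicate 3 (adjusted p = 0.0526 to 0.1), and that of Foxp4 without R47H/+ replicate 2 or 3 or Trem2+/+ replicate 2 (0.0657 to 0.0807). Med20, a subunit of the Mediator complex, had log2 fold changes of 0.22 and 0.30 and was not called (adjusted p = 0.14 and 0.0688).

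Among 11 members of ribosome assembly, translation and RNA processing, Gtpbp2 rose as above and Bysl, a factor of small ribosomal subunit assembly, fell without tau. Bysl was measured at 12.4, 12.3 and 11.95 CPM in R47H/+ libraries, against 18.1, 18.1 and 17.01 CPM in Trem2+/+ libraries. The groups stood apart, with a log2 fold change of -0.54 (SE 0.117, adjusted p = 0.00481; edgeR quasi-likelihood test, Benjamini-Hochberg adjustment), while with tau it was 0.02 (SE 0.116, adjusted p = 0.92). The call without tau was lost with no filter on low counts (adjusted p = 0.061). Bysl overlaps another gene on the opposite strand that held 12230 counts over all libraries, where Bysl held 4641. The 8 members on the list of mitochondrial proteins, among them the mitoribosomal protein Mrpl14 and the mitochondrial alanyl-tRNA synthetase Aars2, gave 0 calls by edgeR and 0 by DESeq2 in either comparison. The list also holds Oard1 and Dnph1, whose location in mitochondria was not checked here. At an unadjusted p under 0.05 there were 0 without tau and 2 with tau, Aars2 and Oard1. The log2 fold changes of the 8 ran from -0.78 (Dnph1) to 0.12 without tau and from -0.44 (Dnph1) to 0.64 (Oard1) with tau. Without both length-shifted libraries they ran from -0.29 to 0.45 (Oard1) without tau and from -0.76 (Dnph1) to 0.42 (Oard1) with tau. In that fit 3 were called higher without tau, Oard1 (0.45), Mrps10 (0.35, against -0.09 with all libraries) and Mrps18a (0.31, against -0.18). With tau Oard1 was called higher and Aars2 lower (-0.47, adjusted p = 0.0367, edgeR quasi-likelihood test).

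The ubiquitin ligase scaffolds Cul7 and Cul9 were lower in R47H/+ cells with tau. Of 8 members of ubiquitin and protein turnover, Cul7 and Cul9 fell with tau and 0 were called without it by edgeR, with 1 at an unadjusted p under 0.05 (Klhdc3) and 0 by DESeq2. Cul7 was also called lower, and Ubr2 higher, without tau when both length-shifted libraries were left out. Cul7 was measured at 7.67, 7.92 and 9.20 CPM in R47H/+ libraries with tau, against 14.6, 12.4 and 12.4 CPM in Trem2+/+ libraries with tau. Every R47H/+ library was below every Trem2+/+ library, with a log2 fold change of -0.67 (SE 0.165, adjusted p = 0.017). Cul9 was measured at 33.8, 28.6 and 40.5 CPM in R47H/+ libraries with tau, against 62.0, 58.3 and 49.1 CPM in Trem2+/+ libraries with tau, a log2 fold change of -0.72 (SE 0.194, adjusted p = 0.0272; edgeR quasi-likelihood test, Benjamini-Hochberg adjustment). Cul9 ranges did not overlap either. The Cul9 call was lost in 4 of 6 leave-one-out fits (adjusted p = 0.0779 to 0.123), those without R47H/+ with tau replicate 1 or 2 or Trem2+/+ with tau replicate 1 or 2, and the Cul7 call in 3 (0.0623 to 0.0909), those without R47H/+ with tau replicate 1 or 2 or Trem2+/+ with tau replicate 1. Klhdc3, a substrate adaptor of cullin ligases, had log2 fold changes of -0.42 and -0.03 and was not called.

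Among 12 members of vesicle traffic, cytoskeleton and signalling, Plcl2 rose in both conditions and Frs3, an adaptor of fibroblast growth factor receptors, fell with tau. Frs3 was measured at 0.304, 0.803 and 0.4 CPM in R47H/+ libraries with tau, against 1.39, 0.814 and 1.36 CPM in Trem2+/+ libraries with tau. The highest R47H/+ library lay just below the lowest Trem2+/+ library, over 26 counts against 69, and the log2 fold change was -1.22 (SE 0.361, adjusted p = 0.0431; edgeR quasi-likelihood test, Benjamini-Hochberg adjustment). Its call was lost without R47H/+ with tau replicate 1 or 3 or Trem2+/+ with tau replicate 1 or 3 (adjusted p = 0.122 to 0.171), with no filter on low counts (0.099) and with the replicate block (0.0726). Klc4, a kinesin light chain outside the role lists, fell with tau by 0.59 on the log2 scale (SE 0.106, adjusted p = 0.00194), and without tau its log2 fold change was -0.29 (adjusted p = 0.0773). It was measured at 35.6, 42.6 and 41.9 CPM in R47H/+ libraries with tau, against 62.2, 66.8 and 52.2 CPM in Trem2+/+ libraries with tau, without overlap. Pex6, an ATPase of peroxisomal import and also outside the lists, fell without tau by 0.54 on the log2 scale (SE 0.173, adjusted p = 0.0453; edgeR quasi-likelihood test, Benjamini-Hochberg adjustment). That call was lost without any 1 R47H/+ library or Trem2+/+ replicate 3 (adjusted p = 0.0962 to 0.156), with no filter on low counts (0.0643) and with the replicate block (0.0672). Pex6 was -0.30 without both length-shifted libraries (adjusted p = 0.031).

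Of 7 members on the list of immune and surface proteins, Enpp4 and its relative Enpp5 rose without tau, and with tau Clic5 rose and Tnfrsf21 fell. The list does not hold A530064D06Rik, B430306N03Rik, Ebi3 or Adgre4. Enpp5 was measured at 1.18, 1.23 and 1.68 CPM in R47H/+ libraries without tau, against 0.104, 0.779 and 0.54 CPM in Trem2+/+ libraries, a log2 fold change of 1.49 (SE 0.43, adjusted p = 0.0274). Clic5, a chloride intracellular channel protein, was measured at 12.9, 6.43 and 10.4 CPM in R47H/+ libraries with tau, against 3.63, 2.59 and 3.75 CPM in Trem2+/+ libraries with tau. No library crossed between genotypes, and the log2 fold change was 1.57 (SE 0.318, adjusted p = 0.00466). Tnfrsf21, the death receptor 6, was measured at 73.5, 52.0 and 70.3 CPM in R47H/+ libraries with tau, against 114, 106 and 101 CPM in Trem2+/+ libraries with tau. Its log2 fold change was -0.71 (SE 0.211, adjusted p = 0.0441; edgeR quasi-likelihood test, Benjamini-Hochberg adjustment), and the lowest value came from the length-shifted R47H/+ library. The call was lost in each of its 6 leave-one-out fits (adjusted p = 0.0621 to 0.183) and with the replicate block (0.0619), although without both length-shifted libraries it was held at -0.57 (adjusted p = 2.73e-06), and that of Enpp5 without R47H/+ replicate 2 or 3 or Trem2+/+ replicate 1 (0.0517 to 0.104). The 6 members of cell division and DNA repair gave 0 calls by edgeR and 0 by DESeq2 in either comparison, with 1 at an unadjusted p under 0.05 in each, Tbcc (lower without tau) and Cenpq (higher with tau). Cenpq, a kinetochore protein, had log2 fold changes of 0.98 and 1.12 (adjusted p = 0.223 and 0.166), and without both length-shifted libraries it was called without tau at 1.91 (adjusted p = 0.00651) and was 0.76 with tau. Cenpq held 370 counts over all libraries and overlaps Mut on the opposite strand, which held 10136. Whether counting used strand is not given in the sources used here. Role lists cover 59 members, and 18 are in none.

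Close to Trem2 on the side of higher coordinates, 0 of the 5 members within 2 Mb were called for genotype by edgeR. At an unadjusted p under 0.05 there were 2 without tau (Nfya and Rftn1) and 1 with tau (Oard1), and DESeq2 called Rftn1 without tau. Nfya, a subunit of the CCAAT-binding factor NF-Y (0.0405 Mb), had log2 fold changes of 0.37 without tau and 0.04 with tau (SE 0.155 each). Oard1, which removes ADP-ribose from proteins (0.0636 Mb), had -0.15 and 0.64 (SE 0.287 each), and its direction without tau turned to 0.45 (adjusted p = 0.0123) without both length-shifted libraries, where it was 0.42 with tau (adjusted p = 0.0188). In the same fit the direction of Mocs1 without tau turned too, to -0.13, Nfya was 0.15 without tau and 0.13 with tau, Rftn1 was -0.08 with tau, and Daam2 was -0.25 with tau, none of them called. Mocs1, of molybdenum cofactor synthesis (1.08 Mb), had 0.16 and 0.05, Daam2, a formin (1.11 Mb), -0.64 and -0.51, and Rftn1, a lipid raft protein (1.65 Mb), -0.27 and -0.04. With all 18 libraries none of these 5 had an adjusted p under 0.0924 in the edgeR quasi-likelihood test, while with the lowess offset for gene length Nfya without tau was called at 0.27 (adjusted p = 0.0359). On the other side Mdfi, an inhibitor of myogenic transcription factors (0.531 Mb), had the lowest fitted values of all members, -1.21 without tau (adjusted p = 0.083) and -1.67 with tau (adjusted p = 0.129), over 50 counts against 118 and 8 against 30.

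Gene length moved with these differences. Of the 12 members under 2 kb, 11 had a negative log2 fold change without tau (median -0.59) and 9 a positive one with tau (median 0.36). The 26 members of 5 kb or more had medians of 0.14 without tau and -0.13 with tau. With both length-shifted libraries left out, the medians of the short members were 0.03 and 0.04 and those of the long members 0.00 and -0.04. In that fit 30 members were called without tau (19 higher, 11 lower; 39.5%, beside 28.9% of all genes tested), 22 with tau (13 higher, 9 lower; 28.9%, beside 23.3%) and 16 in both with the same sign (21.1%, beside 12.1%). The 16 held all 6 named above, and 10 more: Enpp4, Kat2b, Oard1 and Zfp119b were higher and Cul7, Klc4, Mdfi, Pex6, Tfeb and Tnfrsf21 lower in both conditions.

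**Figure D4:**
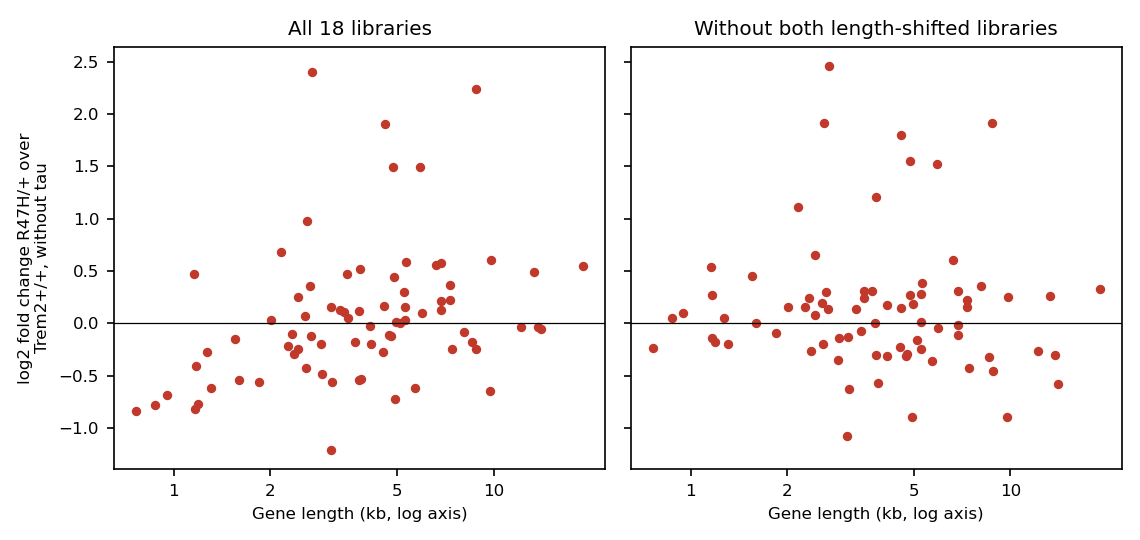
Log2 fold change of R47H/+ over Trem2+/+ without tau (y axis) against gene length in kb on a log axis (x axis) for the tested members, with all 18 libraries on the left and with Trem2+/+ replicate 3 and R47H/+ with tau replicate 2 left out on the right. The members under 2 kb lie mostly below 0 on the left (median -0.59) and on both sides of it on the right (median 0.03), while Capn11 stays the highest point.

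Few neighbours were called for MK-2206 in R47H/+ cells. These comparisons share the R47H/+ libraries with the genotype comparisons. Without tau 2 of 76 members were called, both lower (2.63%, beside 2.55% of all genes tested and 1.36% lower), and with tau 1, lower (1.32%, beside 3.04% and 1.4% lower). Without tau 10 were called in a fit of the compared groups alone and 8 without both length-shifted libraries. The shares of all genes called for MK-2206 in those fits are not given here, so these counts cannot be set against other genes. A530064D06Rik was measured at 1.37, 0.54 and 1.40 CPM in R47H/+ libraries with MK-2206, against 3.34, 3.27 and 2.01 CPM in R47H/+ libraries without it, and fell by 1.38 on the log2 scale (SE 0.288, adjusted p = 0.016). Adgre4, an adhesion receptor of macrophages related to F4/80, was measured at 15.4, 13.2 and 25.8 CPM with MK-2206, against 50.6, 51.8 and 52.3 CPM without it, and fell by 1.51 (SE 0.286, adjusted p = 0.00901; edgeR quasi-likelihood test, Benjamini-Hochberg adjustment). Both were apart without overlap. The call of A530064D06Rik was lost without R47H/+ replicate 1 or 2 or R47H/+ with MK-2206 replicate 2 (adjusted p = 0.0703 to 0.0923), and that of Adgre4 without R47H/+ with MK-2206 replicate 1 or 2 (0.0521 and 0.0646). With tau the log2 fold changes of the same genes were -0.22 (adjusted p = 0.664) and -0.10 (adjusted p = 0.891), and the difference between the tau conditions was not tested.

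With tau Bysl was the member called for MK-2206, at 9.48, 11.6 and 8.97 CPM in R47H/+ libraries with MK-2206 and tau, against 14.4, 17.7 and 15.5 CPM in R47H/+ libraries with tau. It fell by 0.67 on the log2 scale (SE 0.118, adjusted p = 0.00565; edgeR quasi-likelihood test, Benjamini-Hochberg adjustment), and the call was lost with no filter on low counts (adjusted p = 0.054) and in a fit of the compared groups alone (adjusted p = 0.0737). Of the 6 members higher in R47H/+ in both tau conditions, the other 5 had log2 fold changes for MK-2206 of -0.23 (Gtpbp2) to 0.44 (Capn11) without tau, and all 6 of -0.22 (A530064D06Rik) to 0.39 (Capn11) with tau. None of these passed the test except A530064D06Rik without tau.

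More neighbours were called for tau fibrils than for genotype. In R47H/+ cells 27 of 76 members were called, 18 higher and 9 lower (35.5%, beside 27.6% of all genes tested, 15% higher and 12.6% lower), and in Trem2+/+ cells 22, 17 higher and 5 lower (28.9%, beside 26.5%, 14.4% higher and 12.1% lower). These 2 comparisons share no library with each other, and both share libraries with the genotype comparisons. In both genotypes 15 members were called, all with the same sign, 13 higher and 2 lower, which is 19.7% of members beside 14.9% of all genes tested. Clic5 held 506 counts in R47H/+ and 193 in Trem2+/+ libraries with tau, against 6 in R47H/+ and 1 in Trem2+/+ libraries without it. A530064D06Rik rose by 3.22 in R47H/+ (SE 0.249, adjusted p = 9.05e-08) and by 3.96 in Trem2+/+ (SE 0.277, adjusted p = 1.71e-08; log2 scale, edgeR quasi-likelihood test, Benjamini-Hochberg adjustment).

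The other members that rose with tau in both genotypes include the surface and secreted proteins Enpp4 (log2 fold change 1.33 in R47H/+ and 2.70 in Trem2+/+), Adgre4 (1.71 and 1.73), B430306N03Rik (1.58 and 1.27), Ebi3 (1.23 and 1.09) and Pla2g7, the platelet-activating factor acetylhydrolase (1.03 and 0.72). Gtpbp2 rose by 1.28 in each, Mocs1 by 0.92 and 1.03, and Plcl2 by 0.71 and 0.77. Mdfi (-2.51 in R47H/+ and -2.05 in Trem2+/+) and Rftn1 (-0.55 and -0.78) fell in both. Ankrd66 rose by 2.91 in R47H/+ (SE 0.351, adjusted p = 1.02e-05), against 0.87 in Trem2+/+ (SE 0.344, adjusted p = 0.0733; edgeR quasi-likelihood test, Benjamini-Hochberg adjustment).

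Members called with tau in 1 genotype were 12 in R47H/+ and 7 in Trem2+/+. Of all genes tested, 27.6% were called in R47H/+, 26.5% in Trem2+/+ and 14.9% in both with the same sign. The share of all genes called in 1 genotype alone was not computed. Among the members called in 1 genotype, only Ankrd66 passed the interaction test in the main edgeR fit of all 18 libraries. On all 18 libraries DESeq2 also called Foxp4, Tbc1d5 and Bysl for the interaction. With the lowess offset for gene length edgeR also called Foxp4 (0.97, adjusted p = 0.0184), Klc4 (-0.52, adjusted p = 0.036) and Bysl (0.54, adjusted p = 0.0392). Without both length-shifted libraries Foxp4 (0.99, adjusted p = 0.00186), Tbc1d5 (-0.44, adjusted p = 0.00841), Bysl (0.50, adjusted p = 0.0364) and Cnpy3 (-0.51, adjusted p = 0.0369) passed the edgeR interaction test (values are log2 differences of differences). The members called for tau in R47H/+ alone include Foxp4 (1.23, adjusted p = 0.00013), Cul7 (-0.75, adjusted p = 0.00279), Klc4 (-0.53, adjusted p = 0.00122), the zinc finger protein Zfp318 (-0.83, adjusted p = 0.0182) and the Rab GTPase-activating protein Tbc1d5 (-0.54, adjusted p = 0.0303). Those in Trem2+/+ alone include Enpp5 (2.02, adjusted p = 0.00168), Supt3, a subunit of the SAGA complex (-0.69, adjusted p = 0.0429), Tfeb (-0.54, adjusted p = 0.0317) and 2310039H08Rik (-1.09, adjusted p = 0.0388). Of these, Zfp318, Tbc1d5, Supt3, Tfeb and 2310039H08Rik lost their calls in 2 to 4 of 6 leave-one-out fits each (adjusted p = 0.0637 to 0.189), with Supt3 at -0.32 (adjusted p = 0.156) and 2310039H08Rik at -0.50 (adjusted p = 0.0998) without both length-shifted libraries. These fits included those without Trem2+/+ replicate 3 for Supt3, Tfeb and 2310039H08Rik and without R47H/+ with tau replicate 2 for Zfp318 and Tbc1d5. The other values are log2 fold changes of tau over no tau, and p-values are from edgeR's quasi-likelihood model, adjusted by Benjamini and Hochberg. Of the 7 members on the list of immune and surface proteins, edgeR called 4 higher for tau in R47H/+ and 6 in Trem2+/+, and none lower. The list does not hold A530064D06Rik, B430306N03Rik, Ebi3 or Adgre4, each called higher for tau in both genotypes. The lowest log2 fold change of the 7 in R47H/+ was -0.55 (Tnfrsf21). It had an unadjusted p under 0.05 and was called lower by DESeq2.

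**Figure D5:**
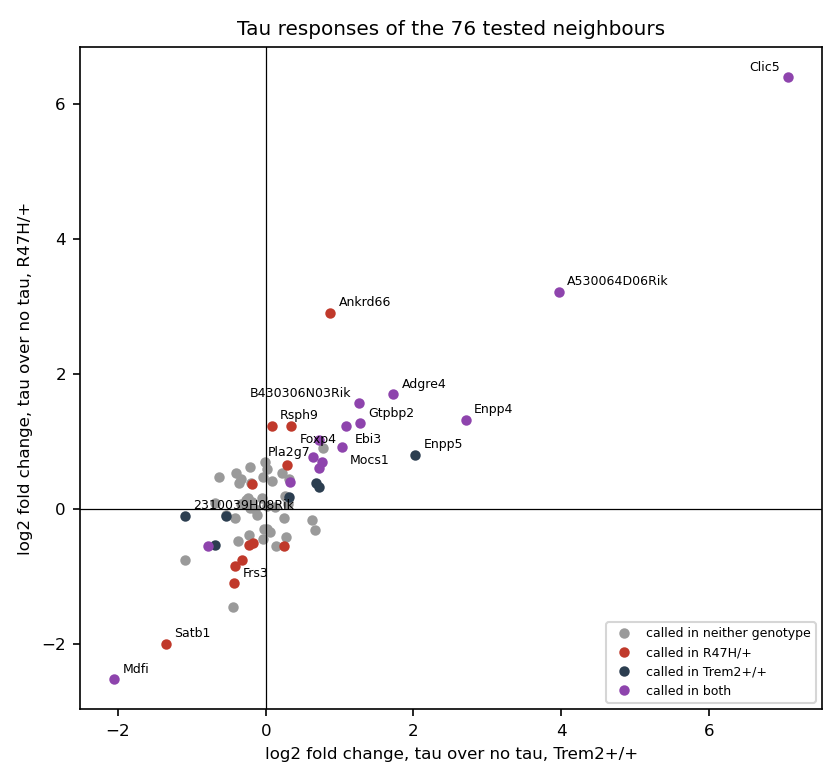
Log2 fold change of tau over no tau in R47H/+ cells (y axis) and in Trem2+/+ cells (x axis) for the 76 tested members, coloured by the genotype in which the gene was called. Clic5 lies far to the upper right at fitted values that depend on the prior count, since its libraries without tau were nearly empty. A530064D06Rik follows (3.22 in R47H/+ and 3.96 in Trem2+/+), and Mdfi lies at the lower left (-2.51 and -2.05).

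Searches of the member promoters for other motifs, on both strands, gave letter matches only. The interferon-stimulated response element lay in 2 of 71 member promoters (2.82%, beside 3.49% of all 27025), the amino acid response letters TGATGNAA in 1 (1.41%, beside 4.06%) and the CLEAR letters GTCACGTG of TFEB in 6 (8.45%, beside 2.33%). The 6 were Mrpl2, Klc4, Dnph1, Tbc1d5, Rab5a and Sgo1. Member promoters were picked by nearness to the gene start. The 27025 were the first listed of each gene, not limited to genes counted in these cells, so the shares are of unlike sets. Of the members held in both tau conditions, 5 of 6 matched a promoter in the table.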

How the data were processed

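Raw counts per gene of 18 libraries (6 groups of 3) were deposited by the authors in 1 table with gene coordinates and gene lengths. Per the submitters' processing notes, STAR, featureCounts and DESeq2 were used with builds GRCm38 and mm10, and no version is given there. The extract protocol names a NEBNext Ultra library kit, and whether counting used strand is not given in the sources used here. Library totals were 16288531 to 20686299 counts. No column of per-sample values was left out.

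Counts were tested with edgeR 4.0.16 (limma 3.58.1, R 4.3.3): TMM scaling, filterByExpr (13267 of 54532 genes kept) and 1 quasi-likelihood model over the 6 groups with 12 residual degrees of freedom. P-values were adjusted over all genes tested by Benjamini and Hochberg, with a threshold of 0.05. CPM are scaled by TMM, and per-kb values use the deposited gene length. Comparisons were R47H/+ against Trem2+/+ in each tau condition, their interaction, MK-2206 against no MK-2206 in R47H/+, and tau against no tau in each genotype. An exact permutation of 3 against 3 libraries cannot go below p = 0.1, so the model was used. The alternatives were RLE scaling, no filter, DESeq2 1.42.0, the compared groups alone, a replicate block, a lowess offset for gene length, each library left out, and both length-shifted libraries left out.

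The members, role lists and alternatives were chosen with earlier results of these data known, the length-shifted libraries among them. Members named with values were those called in both tau conditions, the 6 nearest tested on each side of Trem2, those called for the interaction, up to 5 higher and 5 lower per comparison with the largest change above a mean log2 CPM of 1, and those of each role list with the 3 smallest p-values. Other members named were chosen after their values were seen. Some genes of the window are not reported here.

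Replicates differed beyond counting noise, with a chi-square per gene of 3.47 to 290 between libraries of a group, and each library was treated as 1 sample. The highest values were those of pairs with a length-shifted library. Such a spread does not show whether the replicates came from separate cultures or mice. Tested on simulated data for R47H/+ against Trem2+/+ without tau (13034 genes), the model recovered 14.9% of genes changed 1.5-fold, 53.7% of those changed 2-fold and 81.8% of those changed 4-fold, and 2.91% of its calls were unchanged genes. In the simulation genes varied independently, few were changed and no library had a gene length shift, so these shares may not carry over to the real comparison. Coordinates are the authors', in GRCm38, and start, end and strand are those of GENCODE M21 for 77 of 77 members. Promoters are from RefSeq (GRCm38.p6, 71 members matched by symbol) and were searched with Python 3.11.15, pandas 2.3.3 and Biopython 1.88.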

Additional observations from a re-analysis of the deposited data

Results flagged for a closer look

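For 2 members the difference between genotypes itself differed between the tau conditions in the interaction test of the edgeR quasi-likelihood model. For Ankrd66 the log2 difference of differences was 2.04 (adjusted p = 0.0219), from 1.43 with tau and -0.61 without it, and the R47H/+ libraries lay above the Trem2+/+ libraries in 3 of 3 with tau. For Enpp4 it was -1.37 (adjusted p = 0.0018), from 0.53 with tau and 1.91 without it, and 3 of 3 R47H/+ libraries lay above every Trem2+/+ library in each condition.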

How the results depend on the processing

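The members called were 12 without tau and 13 with tau for genotype, 6 in both, 2 for the interaction, 2 and 1 for MK-2206 without and with tau, and 27 and 22 for tau in R47H/+ and Trem2+/+. Without both length-shifted libraries 30 and 22 members were called for genotype, 16 in both, 8 for the interaction, 8 and 9 for MK-2206, and 36 for tau in Trem2+/+. When the compared groups were fitted alone, they were 2 for genotype without tau, 1 in both, 1 for the interaction, 10 and 0 for MK-2206 without and with tau and 11 for tau in Trem2+/+. A lowess offset for gene length gave 19 for genotype without tau, 6 for the interaction and 4 for MK-2206 in each tau condition. DESeq2 gave 6 for the interaction and 3 for MK-2206 with tau, and no filter gave 0 for MK-2206 with tau. Group ranges that did not overlap, in the same direction in both conditions, gave 10 members in place of the 6. Leaving out 1 library gave 6 to 17 for genotype without tau, 6 to 11 with tau, 3 to 8 in both, 1 to 6 for the interaction, 0 to 2 and 1 for MK-2206, 19 to 27 for tau in R47H/+ and 15 to 29 in Trem2+/+. The lowest count in both, 3, came without R47H/+ replicate 1 and held A530064D06Rik, Capn11 and Plcl2. Other counts stayed within 1.5 times, and the causes of these changes were not tested. Apart from the genotype shares stated above, the shares of all genes called in these alternative fits are not given here. The counts without such a share cannot be set against other genes.

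Directions turned for members that were not called. Oard1 without tau was 0.20 with the lowess offset and 0.45 without both length-shifted libraries, and it ran from -0.42 to 0.43 with 1 library left out, the highest being without Trem2+/+ replicate 3. Mocs1 without tau was -0.13 without both, and ran from -0.15 (without Trem2+/+ replicate 3) to 0.46 with 1 library left out. With tau Mocs1 ran from -0.024 to 0.095 (below 0 without R47H/+ with tau replicate 3 or Trem2+/+ with tau replicate 3), Nfya from -0.042 (without R47H/+ with tau replicate 3) to 0.13, and Rftn1 from -0.15 to 0.078 (above 0 without Trem2+/+ with tau replicate 1).

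With the replicate number as a block, 11 members were called for genotype without tau, 10 with tau, 5 in both (A530064D06Rik with tau was lost, adjusted p 0.07, as were Frs3 and Tnfrsf21 with tau, 0.0726 and 0.0619, and Pex6 without tau, 0.0672), 2 for the interaction, 2 and 1 for MK-2206, and 25 and 18 for tau in R47H/+ and Trem2+/+ (Tfeb, Supt3 and 2310039H08Rik in Trem2+/+ were lost, adjusted p 0.0512 to 0.0675). Libraries of the same number correlated at -0.143 to 0.201 in their deviations from the group means. In each comparison 0 to 2 of 6 libraries correlated best with their own number. What libraries of the same number share is not given in the sources used here, and these correlations cannot decide it. Depth limits the members with few reads, such as Capn11, Frs3 and Mdfi.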
